A study of Mus musculus with 16 samples.

Results

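This report describes 10 genes that mark inhibitory interneurons or make their transmitter in the brains of 16 female mice. The genes were chosen by symbol as the peptide genes Sst, Npy, Vip and Cck, the calcium-binding protein genes Pvalb, Calb1 and Calb2, the glycoprotein gene Reln, and Gad1 and Gad2, which make GABA. All 10 were found among the 55487 genes of the count table, each under 1 identifier, and all 10 were among the 18609 genes tested, which reached 10 counts in 4 mice or more. The study asked how evacetrapib, an inhibitor of cholesteryl ester transfer protein (CETP), acts on the brain of mice that carry human CETP, with or without amyloid pathology. Both genotypes were on a C57BL/6J background and carried the human CETP transgene, because mice have no CETP of their own. The mice named APPtg/CETPtg also expressed a human amyloid precursor protein with familial mutations in neurons under the Thy1 promoter, and the mice named CETPtg did not. All mice, controls included, had their chow replaced by a low-fat Western-type diet holding 1% cholesterol. They were given either evacetrapib at 30 mg per kg body weight per day or its vehicle for 11 weeks, so no group lacked CETP or the diet. The 4 groups held 4 mice each, and poly(A) RNA of bulk brain was sequenced. Mice are named below as in the labels, S1 to S4 and A to D for CETPtg under vehicle and evacetrapib, and S5 to S8 and E to H for APPtg/CETPtg under vehicle and evacetrapib.

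Cortical and hippocampal interneurons release GABA, which glutamate decarboxylases make from glutamate. They fall into classes that are told apart by the peptide or calcium-binding protein they hold. Parvalbumin cells fire fast and inhibit cell bodies, somatostatin cells inhibit dendrites, and vasoactive intestinal peptide cells mostly inhibit other interneurons. None of these markers is confined to interneurons of the cortex. Cholecystokinin is also made by many pyramidal cells, calbindin by striatal and hippocampal projection neurons, and calretinin, reelin and both glutamate decarboxylases by neurons of the olfactory bulb. In bulk tissue, fewer cells of a class and less RNA per cell cannot be told apart.

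Transcription of several peptide genes is known to respond to cAMP through a short promoter element, the cAMP response element, which was first described in the somatostatin gene. The promoters of the 4 peptide genes are shown because 3 of these genes were the only members called between genotypes. The letters searched were TGACGTCA for the whole element and CGTCA for its core, each on both strands, so that the core also matches as TGACG and a whole element also holds overlapping cores. RefSeq promoters of GRCm38.p6 were found for 8 of the 10 members, and the 120 bases before the RefSeq start were read. Sequences run 5′ to 3′ on the gene's strand, with matches in capitals. For Sst, at chr16:23890874-23890903 on the minus strand, 30 bases around the match are printed, and for Npy (chr6:49822590-49822709, plus strand), Vip (chr10:5639098-5639217, plus strand) and Cck (chr9:121495695-121495814, minus strand) the whole window is.
Sst: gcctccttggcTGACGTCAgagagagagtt
Npy: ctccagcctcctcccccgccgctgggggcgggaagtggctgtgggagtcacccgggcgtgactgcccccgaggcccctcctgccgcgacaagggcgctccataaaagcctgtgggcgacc
Vip: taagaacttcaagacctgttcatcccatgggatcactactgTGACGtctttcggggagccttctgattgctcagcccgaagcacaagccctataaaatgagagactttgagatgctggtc
Cck: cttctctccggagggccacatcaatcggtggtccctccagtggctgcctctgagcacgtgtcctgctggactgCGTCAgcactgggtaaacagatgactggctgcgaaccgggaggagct
Sst held the whole element 48 bases before its start, a match that 1.24% of 32851 promoters had. Vip held the core 79 bases and Cck 47 bases before the start, and the core was found in 11.7% of promoters. Gad2 also held the core, 33 bases before its start, and no match lay in these windows of Npy, Pvalb, Reln or Gad1. All these distances are to RefSeq starts. The GENCODE M21 annotation starts Sst at chr16:23890958 and Gad2 at chr2:22622205, so by it the matches of these genes lie within the gene. A match describes letters in a window and shows no binding.

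Levels can be compared between genes only per length, so counts scaled to a common library size (CPM) were divided by the exon length of each gene. On this scale, which is mean CPM per kilobase of exon with the SD over 16 mice, Sst stood highest at 265 ± 29.3. Cck followed at 177 ± 31.1, Npy at 95.6 ± 16.4 and Gad1 at 71.9 ± 10.9. Each of the 4 was above the next gene of the order in 16 of 16 mice, but only Gad1 and Gad2 (47.4 ± 4.70) had ranges over mice that did not overlap. Calb2 (35.7 ± 17.5) was below Gad2 in 10 mice and above Pvalb (28.9 ± 5.71) in 11, so the order of these 3 was not settled in single mice. Calb1 (20.4 ± 1.56), Vip (7.44 ± 1.38) and Reln (4.93 ± 0.723) closed the order, and the ranges of Calb1 and Vip did not overlap.

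The genes also differed in how steady they were. Calb2 varied 7.03-fold between the lowest and the highest mouse in CPM, against 1.36-fold for Calb1, 1.37-fold for Gad2 and 1.43-fold for Sst. The other 6 members lay between 1.64-fold and 1.98-fold. Within groups, the SD of the log2 CPM of Calb2 was 0.87, more than in 99.9% of the 2456 genes of similar level, whose median SD was 0.08. Pvalb had a within-group SD of 0.27 on this scale, more than 98.4% of 2638 such genes, and Sst and Calb1 had 0.10 each, more than 80.0% and 79.5% of theirs. The plot of CPM by mouse shows the 10 genes side by side.

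**Figure D1:**
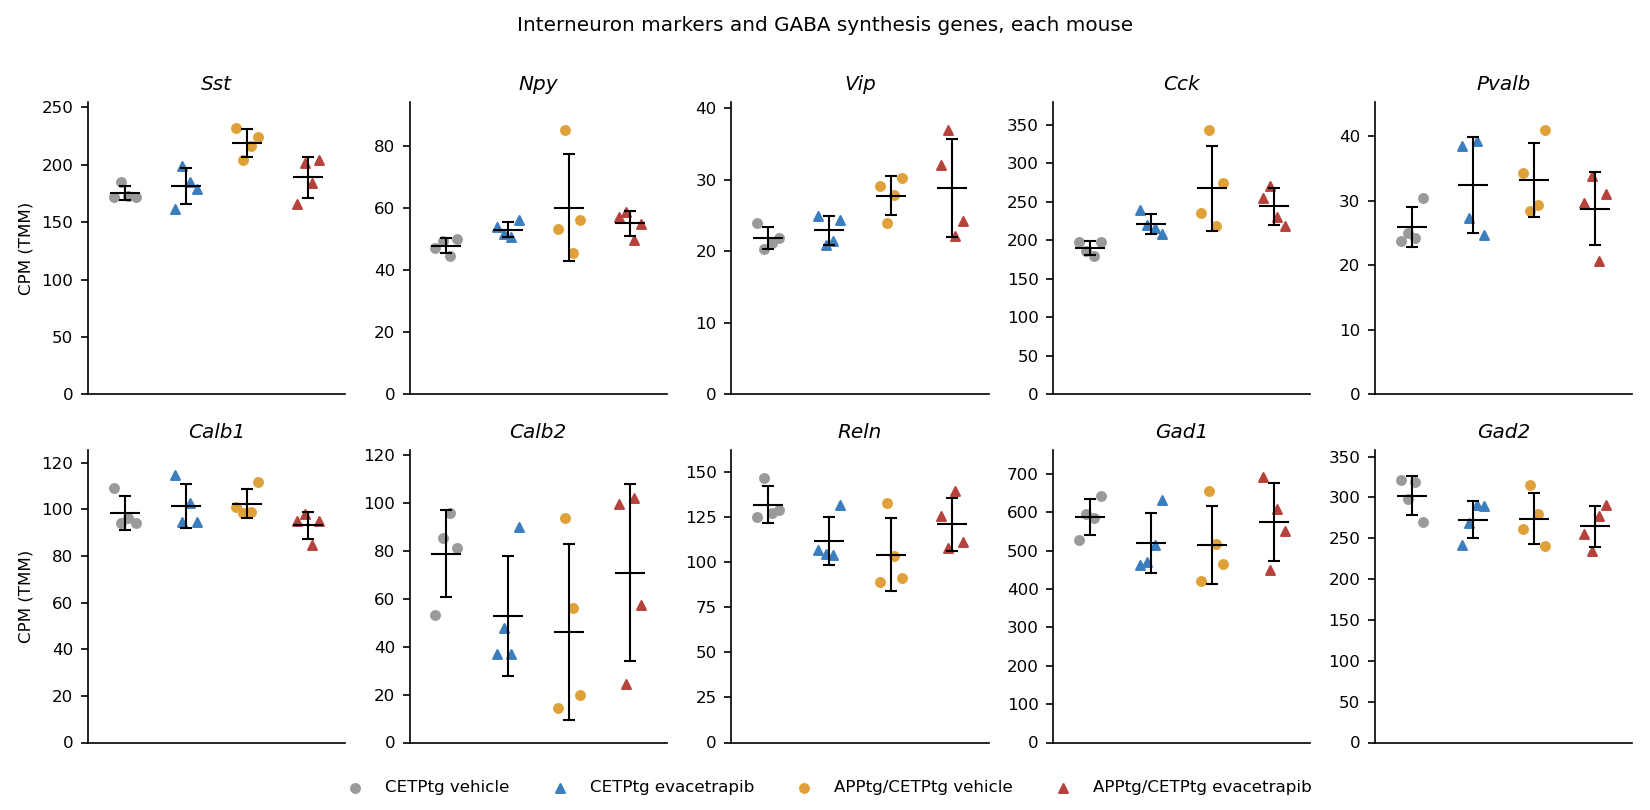
CPM of each of the 10 genes (vertical axes, linear, 1 panel per gene) in each mouse (points) of the 4 groups (horizontal axis), with the group mean (bar) and SD (error bar, n = 4). Calb2 runs from 14.5 to 102 CPM with all groups overlapping, while Sst in vehicle-treated mice separates the genotypes, at 172 to 185 CPM in CETPtg and 204 to 232 CPM in APPtg/CETPtg.

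Depth and tissue make-up set how firmly these values can be read. Total counts were 21391335 to 55453789 per mouse, and 320 to 25930 counts lay behind a member in a mouse, the fewest for Calb2 and the most for Gad1. Reads counted at Thy1, whose promoter drives the transgene, were at 684 to 807 CPM in CETPtg and 865 to 2063 CPM in APPtg/CETPtg mice, so that the genotypes did not overlap. Whether RNA of the transgene was among these reads was not tested. In the labels each library has an index position of a letter and a number. No number was shared by the genotypes and no letter by the treatments, so a difference between genotypes cannot be told apart from one between index numbers, nor one between treatments from one between letters. Summed markers of all neurons were even, at 6697 to 7831 CPM. Cerebellar markers were low, at 24.3 to 40.7 CPM for 6 of 8 genes tested, with at most 60 counts of the Purkinje cell gene Pcp2 and 4 of the granule cell gene Gabra6. By contrast, the summed CPM of 6 olfactory bulb markers (Eomes, Tbx21, Cdhr1, Doc2g, Th and Omp) ran from 21.1 to 211, with most of this range found within single groups. The methods describe cerebrum divided into quadrants and do not name the olfactory bulb.

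In the comparison of APPtg/CETPtg with CETPtg mice over both treatments, 3 peptide genes were called higher with the APP transgene and no member was called lower. Vip rose by 0.34 on the log2 scale (SE 0.083, 95% interval 0.17 to 0.52, edgeR adjusted p = 0.00727), Cck by 0.32 (SE 0.080, 0.15 to 0.49, adjusted p = 0.00945) and Sst by 0.19 (SE 0.054, 0.08 to 0.30, adjusted p = 0.0200). Against this, 17.7% of all genes tested were called in this comparison, made up of 9.35% higher and 8.38% lower, and the median log2 difference over all genes was 0.00459. Calls needed an adjusted p of at most 0.05 in edgeR's quasi-likelihood test, adjusted over all 18609 genes by Benjamini-Hochberg, and a change of at least 1.05-fold. Npy, which many somatostatin cells also make, differed by 0.19 (SE 0.090, 0.00 to 0.38) and did not pass (adjusted p = 0.160).

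Sst, which encodes the inhibitory peptide somatostatin, was at 172, 185, 173 and 172 CPM in the vehicle-treated CETPtg mice S1 to S4. It was at 232, 204, 216 and 224 CPM in the vehicle-treated APPtg/CETPtg mice S5 to S8. Every one of these 4 lay above every vehicle-treated CETPtg mouse. Under evacetrapib Sst was at 162, 199, 185 and 179 CPM in CETPtg mice A to D and at 166, 202, 184 and 204 CPM in APPtg/CETPtg mice E to H, and these groups overlapped. In all, 6 of 8 APPtg/CETPtg mice were above the highest CETPtg mouse. The genotype difference was 0.32 among vehicle-treated mice (adjusted p = 0.00659) and 0.06 among evacetrapib-treated mice (adjusted p = 0.674). The call over both treatments was lost without vehicle-treated CETPtg mouse S1 (0.17, adjusted p = 0.0567) and held without each of the other 15 mice.

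Cck encodes cholecystokinin, which is used by a class of basket cells and by many excitatory neurons. It was at 198, 186, 179 and 197.5 CPM in vehicle-treated CETPtg mice and at 235, 343, 219 and 274 CPM in vehicle-treated APPtg/CETPtg mice. These groups did not overlap, and mouse S6 stood far above the rest. Under evacetrapib Cck was at 239, 220.1, 216 and 209 CPM in CETPtg and at 256, 271, 231 and 219 CPM in APPtg/CETPtg mice, where G and H lay within the CETPtg range. All 8 APPtg/CETPtg mice were above the CETPtg median, and 4 were above every CETPtg mouse. The genotype difference was 0.49 under vehicle (adjusted p = 0.00580) and 0.14 under evacetrapib (adjusted p = 0.473). Without S6 it was 0.23 over both treatments and passed (adjusted p = 0.00713), as it did without each of the other mice. None of 6 markers of excitatory cortical and hippocampal neurons was called in this comparison. Their median difference was 0.00, with 3 higher and 3 lower, from −0.14 to 0.15. The summed CPM of that list varied from 5493 to 7249. With the APP transgene its group median was higher under vehicle (6285 against 5897) but lower under evacetrapib (5941 against 6486), with overlapping ranges. The 0.00 therefore joins treatments that ran opposite ways. The part of these markers in the values of Cck was not tested. Markers of other cells were called between the genotypes over both treatments. All 5 oligodendrocyte markers had lower values in APPtg/CETPtg mice, with a median of −0.20 and 2 called, and their summed CPM was 3542 to 4092 and 3547 to 4281 in CETPtg mice under vehicle and evacetrapib against 2902 to 3861 and 2749 to 3634 in APPtg/CETPtg mice. So had all 7 markers of striatal projection neurons, with a median of −0.16, 2 called and summed CPM of 1512 to 1862 and 1493 to 1800.1 against 1293 to 1851 and 1317 to 1606. Their part in the higher values of Sst, Cck and Vip was not tested.

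Vip encodes vasoactive intestinal peptide. It was at 23.96, 20.3, 21.2 and 21.8 CPM in vehicle-treated CETPtg and at 29.1, 23.9, 27.8 and 30.2 CPM in vehicle-treated APPtg/CETPtg mice. Mouse S6, the highest for Cck and Npy, was the lowest of its group for Vip and alone overlapped the CETPtg mice. Under evacetrapib Vip was at 24.9, 20.9, 21.4 and 24.3 CPM in CETPtg mice and at 32.0, 36.9, 22.2 and 24.2 CPM in APPtg/CETPtg mice, where E and F stood above all other mice of the study. All 8 APPtg/CETPtg mice were above the CETPtg median. The difference was of like size under vehicle (0.35, adjusted p = 0.0697) and under evacetrapib (0.34, adjusted p = 0.130) and passed in neither alone, while the call over both treatments held without each of the 16 mice.

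Npy, which encodes neuropeptide Y, was at 47.3, 49.5, 44.7 and 50.1 CPM in vehicle-treated CETPtg mice and at 53.5, 85.2, 45.7 and 56.4 CPM in vehicle-treated APPtg/CETPtg mice. S6 held the highest value of all 16 mice. Under evacetrapib Npy was at 57.3, 58.7, 49.6 and 54.9 CPM in APPtg/CETPtg mice. Over both treatments, the genotype difference without S6 was 0.08 (adjusted p = 0.300). Among vehicle-treated mice, 2 of 10 members (Sst and Cck) had groups that did not overlap between genotypes, both higher in APPtg/CETPtg, against 17% of all genes. Among evacetrapib-treated mice 0 of 10 members were without overlap, against 10.8% of all genes, and 0 were called by edgeR.

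None of the other 6 members passed in the genotype comparison. Pvalb, the marker of fast-spiking basket cells, differed by 0.10 (−0.16 to 0.36, adjusted p = 0.638). Calb1, which encodes calbindin, differed by −0.03 with a narrow interval of −0.14 to 0.07, whereas Calb2, which encodes calretinin, differed by −0.18 with an interval of −0.92 to 0.56. Reln, the secreted glycoprotein reelin, differed by −0.11 (−0.31 to 0.08, adjusted p = 0.436). For GABA synthesis, Gad1 (the decarboxylase found throughout the cell) differed by −0.02 (−0.23 to 0.18, adjusted p = 0.909) and Gad2 (the form concentrated in axon endings) by −0.09 (−0.22 to 0.03, adjusted p = 0.300). All 6 intervals include 0, and that of Calb2 is the widest. The plot of log2 differences sets these beside the treatment results.

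**Figure D2:**
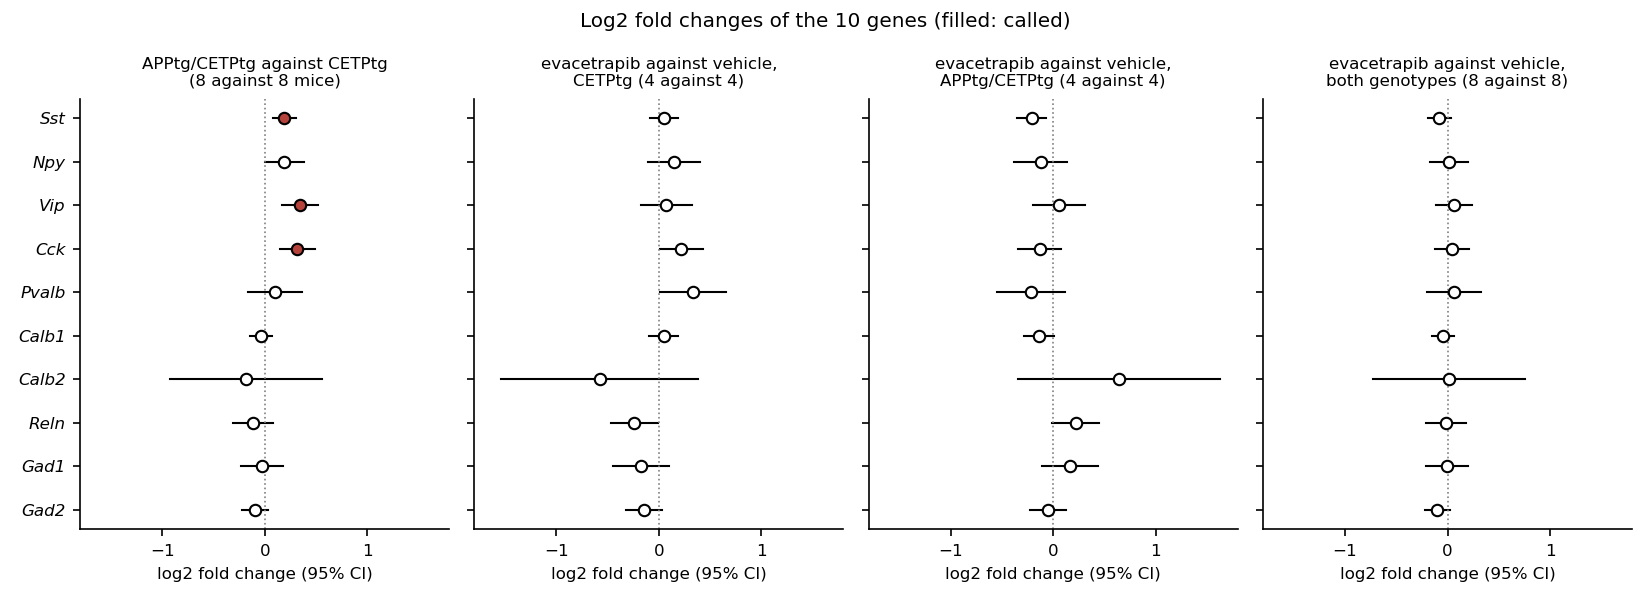
Log2 difference (horizontal axis) with its 95% interval (line) for each of the 10 genes (vertical axis), 1 panel per comparison. Filled points passed the test, which only Sst (0.19), Vip (0.34) and Cck (0.32) did, all in the genotype panel, and the Calb2 interval is the widest in every panel.

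Calb2, Reln and Gad1 moved with the olfactory bulb markers from mouse to mouse. The summed CPM of the 6 markers was 75.5, 163, 155 and 172 in mice S1 to S4, 59.5, 66.1, 42.6 and 180.0 in A to D, 21.1, 202, 72.4 and 26.3 in S5 to S8, and 198, 38.1, 211 and 111 in E to H. Calb2 was at 53.1, 85.3, 96.1 and 81.1 CPM in S1 to S4, and at 37.0, 47.7, 37.0 and 89.9 CPM in A to D. In S5 to S8 it was at 14.5, 93.8, 56.2 and 19.9 CPM and in E to H at 99.7, 24.6, 102 and 57.4 CPM. The mice lowest in the markers (S5 and S8) were the lowest for Calb2, and the mouse highest in the markers (G) was the highest. All 4 groups overlapped for Calb2.

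Across 16 mice, with group means removed, log2 Calb2 and the log2 marker sum had Pearson r = 0.98 and Spearman rho = 0.99 (permutation test within groups, p = 0.0001, adjusted p = 0.000500 over 10 relations, 1 per member). Without the 2 mice farthest from the median of the markers r was 0.97, and it was 0.96 within CETPtg and 0.99 within APPtg/CETPtg mice. For Gad1 r was 0.93 and rho 0.94 (permutation p = 0.0004, adjusted p = 0.00133), with 0.91 without the farthest mice and 0.84 and 0.96 within the genotypes. For Reln r was 0.91 and rho 0.93 (permutation p = 6.0e-05, adjusted p = 0.000500), with 0.85, 0.83 and 0.94 in the same order. Calb1 ran the other way (r = −0.60, rho = −0.67, permutation p = 0.0194, adjusted p = 0.0485), and Pvalb did not pass after adjustment (r = −0.63, rho = −0.62, permutation p = 0.0274, adjusted p = 0.0548). Gad2, Sst, Vip, Npy and Cck did not pass, with r between −0.52 for Vip and 0.53 for Gad2. The marker sum left its widest gap between 111 and 155 CPM. Among the 9 mice below it, r on the levels themselves was 0.96 for Calb2, 0.80 for Gad1 and 0.79 for Reln, and among the 7 mice above it was 0.57, 0.58 and 0.02. The sums ran from 21.1 to 111 CPM below the gap and only from 155 to 211 CPM above it. The low r of Reln above it therefore cannot show where its relation rests. The relation of the members to the marker sum was examined after the values had been seen.

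**Figure D3:**
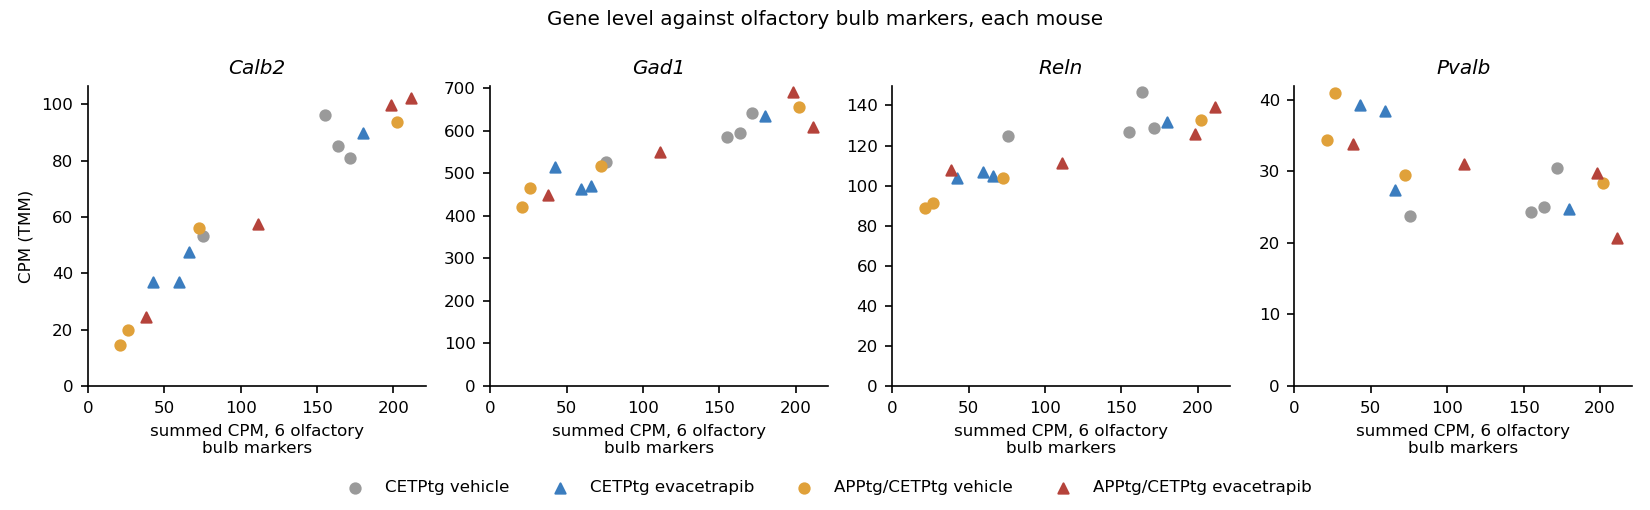
CPM of Calb2, Gad1, Reln and Pvalb (vertical axes, linear, 1 panel each) against the summed CPM of 6 olfactory bulb markers (horizontal axis), 1 point per mouse with colours for the 4 groups. Calb2 follows the sum from 14.5 CPM at a sum of 21.1 to 102 CPM at 211 in all groups, while Pvalb tends the other way.

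Gad1 and Gad2 catalyse the same step. For Gad2 r with the olfactory bulb markers was 0.53 over all mice (adjusted permutation p = 0.118), 0.80 within APPtg/CETPtg and −0.04 within CETPtg mice, and whether it differed from that of Gad1 was not tested. Gad1 was at 527, 596, 586 and 643 CPM in S1 to S4, 463, 469.5, 515 and 634 in A to D, 421, 655, 518 and 466 in S5 to S8, and 692, 449, 609 and 551 in E to H. Its lowest mouse was S5, which was also lowest for the olfactory bulb markers, Calb2 and Reln. Gad2 was at 322, 298, 319 and 269.6 CPM in S1 to S4, 242, 269, 290.3 and 290.2 in A to D, 262, 315, 279.8 and 240.2 in S5 to S8, and 255, 234, 277 and 291 in E to H. It spanned a narrower range, and its lowest mouse was F. With the log2 marker sum as a term of the edgeR fit, chosen after seeing the data, the genotype differences of Sst (0.16, adjusted p = 0.0141), Vip (0.31, adjusted p = 0.00638) and Cck (0.32, adjusted p = 0.00801) still passed. With a term for the index letter, also chosen after seeing the data, they were 0.19, 0.33 and 0.31 and passed. All 8 letters occur in both genotypes, so this term could change the residual spread but hardly the differences themselves. After drawing all libraries down to the smallest total the differences were 0.19, 0.34 and 0.31 and passed. The part of the index number in them cannot be told apart from genotype.

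Evacetrapib was compared with vehicle over both genotypes to ask for an effect common to them. No member was called by edgeR, against 0.0107% of all genes (2 of 18609, with 1472 at an unadjusted p of at most 0.05). The largest member differences were −0.10 for Gad2 (SE 0.059, −0.22 to 0.02, adjusted p = 0.710) and −0.08 for Sst (adjusted p = 0.761). The 4 members with the smallest differences, Npy, Calb2, Reln and Gad1, were within 0.02 of 0, but the interval was −0.73 to 0.76 for Calb2. None of the 10 had treatment groups without overlap over all 16 mice.

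Within CETPtg mice alone no member was called, and the background was 0% (0 of 18609 genes by edgeR, 1079 of them at an unadjusted p of at most 0.05). Pvalb was at 23.7, 25.1, 24.3 and 30.4 CPM under vehicle and at 38.4, 27.3, 39.2 and 24.7 CPM under evacetrapib. Mice A and C stood above all vehicle-treated mice, and B and D lay within their range, for a difference of 0.33 (SE 0.155, 0.01 to 0.66, edgeR adjusted p = 0.837). Reln was at 125, 147, 127 and 129 CPM under vehicle and at 107, 105, 104 and 132 CPM under evacetrapib. Mouse D, the only one of its group within the vehicle range, was also the one with the high olfactory bulb sum, and the difference was −0.24 (SE 0.110, edgeR adjusted p = 0.837). The groups did not overlap for 2 members, Cck and Npy, both higher under evacetrapib, against 3.92% of all genes. Cck differed by 0.22 (SE 0.101, edgeR adjusted p = 0.837), and it, Pvalb and Reln were the 3 members with an unadjusted p of at most 0.05. All 6 markers of excitatory cortical and hippocampal neurons were also higher under evacetrapib here, with a median of 0.17 and 0 called. Their part in the difference of Cck was not tested. Npy was at 53.9, 51.7, 50.6 and 56.3 CPM under evacetrapib, just above the highest vehicle-treated mouse at 50.1, and differed by 0.15. Calb1 was at 109, 94.3, 96.2 and 94.0 CPM under vehicle and at 114, 94.6, 102 and 94.4 CPM under evacetrapib, with 1 mouse of each group (S1 and A) well above the rest. With the olfactory bulb term, chosen after seeing the data, Calb2 went from −0.58 to 0.02, Reln from −0.24 to −0.11 and Gad1 from −0.18 to −0.02 in this comparison.

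Within APPtg/CETPtg mice no member was called either, against 0.043% of all genes (8 of 18609). Sst was the nearest, with a difference of −0.21 (SE 0.067, −0.35 to −0.07, edgeR adjusted p = 0.341), and the levels given above place H just above the lowest vehicle-treated mouse and E, F and G below it. Calb1 was at 101, 98.2, 98.6 and 112 CPM under vehicle and at 94.9, 97.8, 84.4 and 94.96 CPM under evacetrapib. Its groups did not overlap, as in 4.29% of all genes, and its difference was −0.14 (edgeR adjusted p = 0.569). Pvalb was at 34.3, 28.3, 29.4 and 40.9 CPM under vehicle and at 29.7, 33.8, 20.7 and 31.0 CPM under evacetrapib. These groups overlapped broadly, and the difference was −0.21. Reln was at 88.7, 133, 104 and 91.3 CPM under vehicle and at 126, 108, 139 and 111 CPM under evacetrapib, a difference of 0.22 (edgeR adjusted p = 0.592) that was 0.05 with the olfactory bulb term. The differences of Npy (−0.12) and Cck (−0.13) turned to 0.09 and 0.01 without vehicle-treated mouse S6.

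The difference between the genotypes in the evacetrapib effect was tested as an interaction, which uses the same 4 groups as the contrasts above. No member passed, and the background was 0% (0 of 18609 genes by edgeR, with 1271 at an unadjusted p of at most 0.05). The unadjusted p was at most 0.05 for 4 members, Reln (0.46), Sst (−0.26), Cck (−0.35) and Pvalb (−0.54), each with edgeR adjusted p = 0.703. So the presence of a genotype difference of Sst and Cck in vehicle-treated mice and its smaller size under evacetrapib were not shown to differ. All 6 markers of excitatory cortical and hippocampal neurons had negative interaction estimates, like Cck, with a median of −0.31 and 0 called. Their part in the estimate of Cck was not tested. Calb2 had the largest estimate (1.22, edgeR adjusted p = 0.739), which was −0.10 with the olfactory bulb term, as the estimates of Reln went to 0.16 and of Pvalb to −0.20.

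The other genes of the inhibitory system were examined in 5 lists in the genotype comparison, where 17.7% of all genes were called. Among 8 genes of GABA transport and breakdown, 7 had lower values and 1 higher, with a median of −0.12, and 3 were called lower and 0 higher. Among those called were Slc38a1, a glutamine transporter (−0.21, edgeR adjusted p = 0.00746), and Aldh5a1, which completes the breakdown of GABA (−0.12, adjusted p = 0.0127). The vesicular GABA transporter Slc32a1, present in every inhibitory neuron, differed by −0.04 (adjusted p = 0.656).

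Among 14 transcription factors of interneurons, 13 had lower values and 1 higher, with a median of −0.15, and 4 were called lower and 0 higher. Prox1, found in interneurons of the caudal ganglionic eminence and in dentate granule cells, fell by 0.32 on the log2 scale (edgeR adjusted p = 0.0163). Dlx6 fell by 0.22 (adjusted p = 0.0218) and Maf by 0.13 (adjusted p = 0.0440). Nkx2-1, which patterns the medial ganglionic eminence, fell by 0.71 (adjusted p = 0.0264) at a low level of 0.72 to 4.63 CPM.

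Among 16 other interneuron markers, 10 had lower values and 6 higher, with a median of −0.03, and 3 were called lower and 2 higher. Erbb4, the neuregulin receptor of interneurons, was at 51.6 to 61.1 CPM in the 8 APPtg/CETPtg mice and at 65.0 to 73.6 CPM in the 8 CETPtg mice, so the genotypes did not overlap, as in 3.03% of all genes. It fell by 0.25 on the log2 scale (SE 0.039, edgeR adjusted p = 0.000330). Cnr1, a cannabinoid receptor found in cholecystokinin basket cells but not confined to them, fell by 0.25 (adjusted p = 0.00523). The striatal projection neuron markers were also lower in this comparison, as given above, and their part in the value of Cnr1 was not tested. Kcnc2, a potassium channel of fast-spiking cells, fell by 0.16 (adjusted p = 0.00933). Crhbp, which encodes a binding protein of corticotropin-releasing hormone, rose by 0.34 (adjusted p = 0.00816), and Htr3a, the serotonin-gated channel of a class that includes Vip cells, rose by 0.23 (adjusted p = 0.0338).

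Of 12 receptors of the member peptides, 6 had higher and 6 lower values, with a median of −0.03, and 1 was called higher and 0 lower. The somatostatin receptor gene Sstr3 rose by 0.14 (edgeR adjusted p = 0.0483) and passed in 1 of 16 fits without a mouse. The VIP receptor gene Vipr1 did not pass (0.19, adjusted p = 0.106), except among vehicle-treated mice alone (0.42, adjusted p = 0.00422) and without mouse E (0.22, adjusted p = 0.0470). Of the 3 genes through which reelin acts, the receptor gene Vldlr fell by 0.11 (adjusted p = 0.0461), and the adaptor gene Dab1 differed by −0.02. In the 16 fits that each left out 1 mouse, Maf passed in 6, Vldlr in 7, Htr3a in 8 and Nkx2-1 in 13 (adjusted p of up to 0.0881, for Vldlr), while Slc38a1, Aldh5a1, Prox1, Dlx6, Erbb4, Cnr1, Kcnc2 and Crhbp passed in 16. The lists were described by counts and medians only, beside the median of 0.00459 over all genes.

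**Figure D4:**
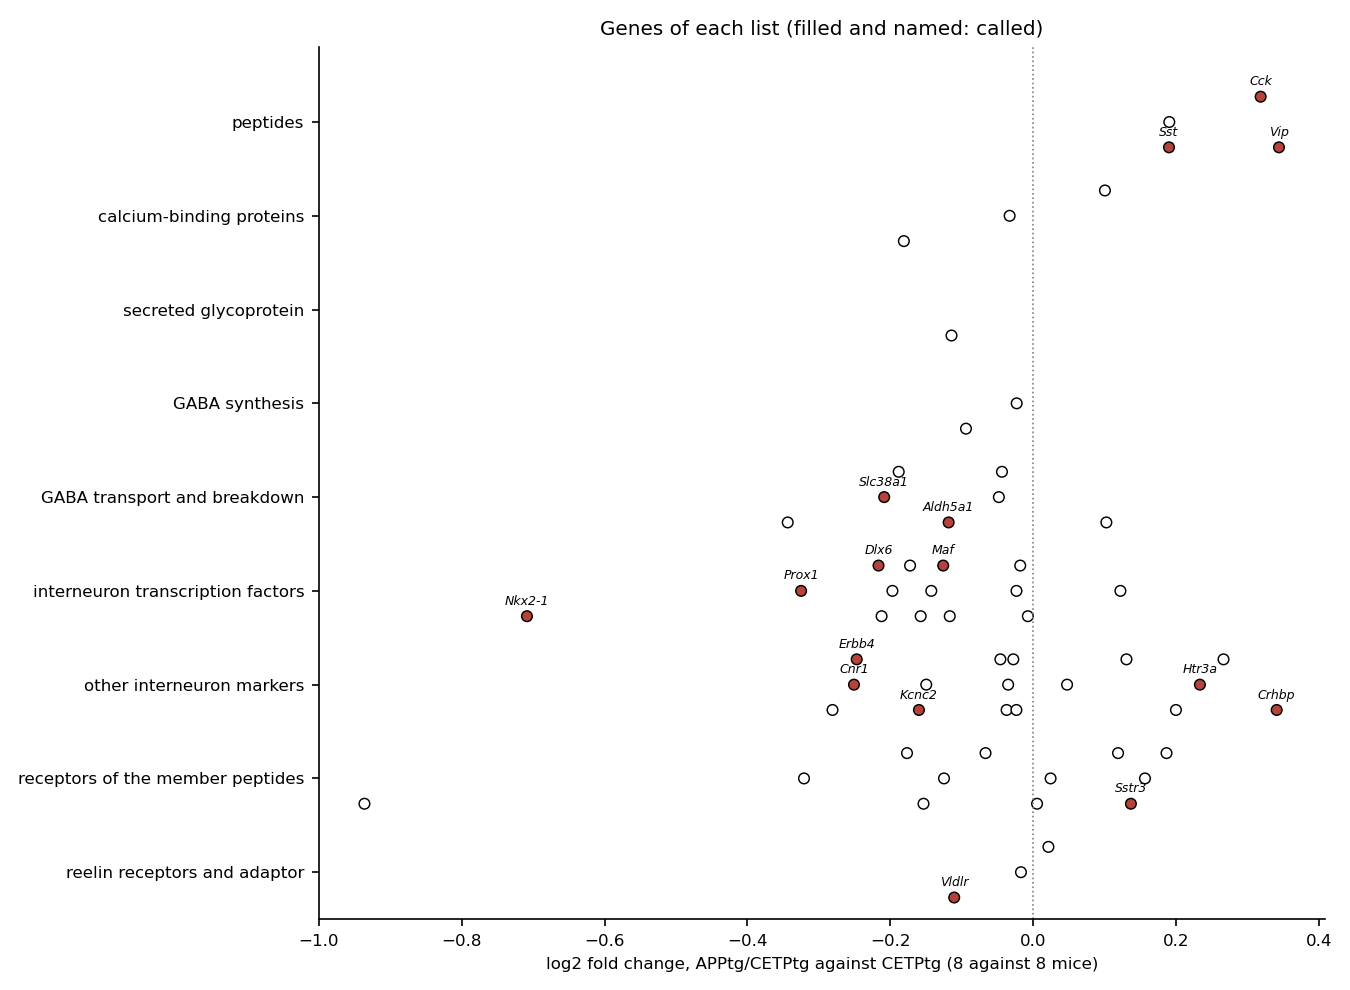
Log2 difference between APPtg/CETPtg and CETPtg mice (horizontal axis) for the genes (points) of the 10 members and of 5 lists of related genes (vertical axis, where offsets only separate points, and 7 of the 8 genes of GABA transport and breakdown are drawn). Filled points with names passed the test, with 3 member peptides on the higher side and Nkx2-1 farthest on the lower side at −0.71.

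Under evacetrapib none of the genes in the 5 lists was called by edgeR over both genotypes. The smallest unadjusted p belonged to Kcnc2 (0.16, edgeR adjusted p = 0.220), the potassium channel that was lower in the genotype comparison, and DESeq2 called it (0.17, adjusted p = 0.0356). Slc32a1 differed by −0.15 (adjusted p = 0.523) and Dab1 by 0.09 (adjusted p = 0.484). Slc6a13 (0.19, adjusted p = 0.677), Nkx2-1 (−0.45, adjusted p = 0.621), Satb1 (0.14, adjusted p = 0.690), Chodl (−0.28, adjusted p = 0.641), Sstr3 (0.11, adjusted p = 0.604), Npy2r (−0.25, adjusted p = 0.754) and Lrp8 (0.04, adjusted p = 0.946) were the others with the smallest p of their lists.

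The members were then compared with each other from mouse to mouse. Of 45 pairs, 3 passed after adjustment, and these joined Calb2, Reln and Gad1 to each other. Calb2 and Gad1 had r = 0.91 and rho = 0.91 (permutation test within groups, p = 0.00027, adjusted p = 0.00832), with 0.90 without the 2 farthest mice, 0.83 within CETPtg and 0.95 within APPtg/CETPtg. Calb2 and Reln had r = 0.87 and rho = 0.93 (permutation p = 0.00037, adjusted p = 0.00832), with 0.80, 0.78 and 0.91. Reln and Gad1 had r = 0.84 and rho = 0.85 (permutation p = 0.00225, adjusted p = 0.0337), with 0.78, 0.75 and 0.87. These are the same 3 genes that followed the olfactory bulb markers. Npy and Cck had r = 0.86 and rho = 0.70 and did not pass (adjusted p = 0.0579), with r = 0.24 within CETPtg and 0.92 within APPtg/CETPtg mice, where S6 was highest for both. Over all pairs r ran from −0.68 to 0.91 with a median of 0.00.

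**Figure D5:**
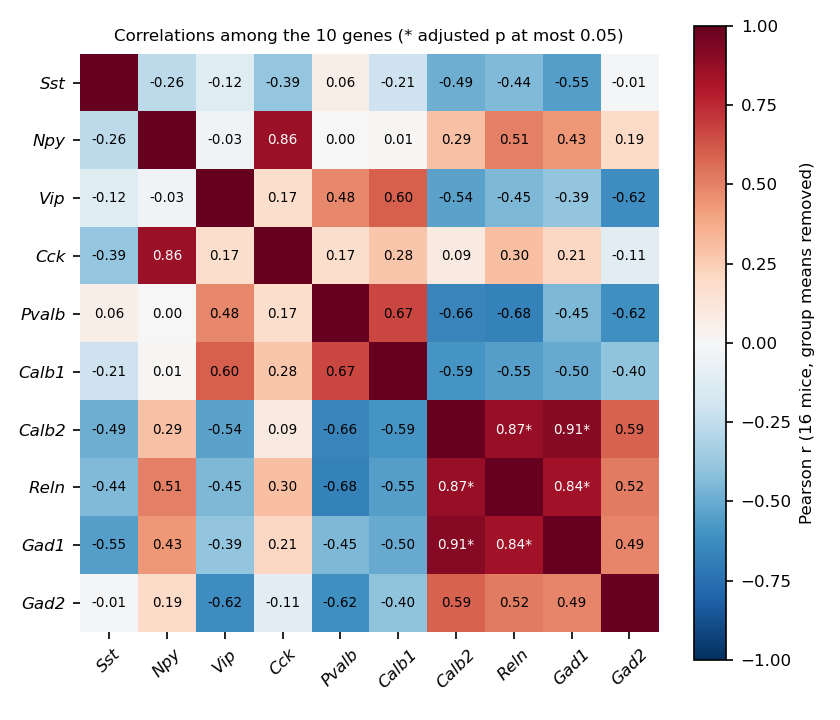
Pearson r of log2 CPM, with group means removed, for all 45 pairs of the 10 genes over 16 mice (colour and number), with an asterisk where the adjusted permutation p was at most 0.05. Only the 3 pairs among Calb2, Reln and Gad1 carry an asterisk, at 0.91, 0.87 and 0.84.

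The genes whose pattern was most like that of each member, as Pearson r of log2 CPM with group means removed over 16 mice, are given as a description. Calb2 was closest to the transcription factor genes Sp8 (0.99) and Foxd3 (0.99) and to Ms4a15 (0.98), and Gad1 to Ablim3, Sall1 and Dlx1 (0.97 each). Reln was closest to Ripply2, Gm29521 and Gdpd4 (0.93 each). Cck was close to Slc17a7 (0.95), the vesicular glutamate transporter of cortical excitatory neurons, and to Efhd2 (0.92). Sst was closest to Diras1 (0.94), Frs3 (0.92) and Cgref1 (0.91), and Npy to Dynlrb1 (0.92), Mpp3 (0.92) and Dynll1 (0.91). Vip was closest to Calhm5 (0.89), Gm17102 (0.88) and Phf7 (0.88). Pvalb was closest to Ccl27a (0.94), Gm13629 (0.93) and Zmat2 (0.92), Calb1 to Glrb (0.91), Septin7 (0.91) and Bcap29 (0.90), and Gad2, with the weakest of these, to Tunar (0.87), Enah (0.86) and Stac (0.85). Sp8 and Dlx1 belong to the list of interneuron transcription factors, and Slc17a7 to the excitatory markers. Some of the nearest genes were at very low levels, so their patterns are less firmly measured. Among them were Foxd3 (0 to 2.30 CPM), Gdpd4 (0.0454 to 2.17 CPM), Gm29521 (0.0454 to 0.784 CPM) and Gm17102 (0.323 to 0.961 CPM).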

How the data were processed

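Bulk brain of 16 mice was measured by directional poly(A) RNA-seq. According to the labels, the submitters' processing notes and the methods, the authors trimmed reads (Trimmomatic 0.39), aligned them to mm10 (STAR 2.7.8a) and counted them per gene with HTSeq, and the deposited table holds raw counts for 55487 genes; the annotation is not given in the sources used here. Every value column was mapped to a sample. GENCODE M21 holds 55227 of the identifiers, and exon lengths and overlaps were taken from it. The antisense gene Gad1os held 158 reads in all and Gm10475, antisense to Reln, 17. The members lie on GRCm38 at chr16:23889573-23890958 (Sst, ENSMUSG00000004366), chr6:49822710-49829507 (Npy, ENSMUSG00000029819), chr10:5639218-5647617 (Vip, ENSMUSG00000019772), chr9:121489824-121495694 (Cck, ENSMUSG00000032532), chr15:78191114-78206400 (Pvalb, ENSMUSG00000005716), chr4:15881264-15908064 (Calb1, ENSMUSG00000028222), chr8:110137502-110168210 (Calb2, ENSMUSG00000003657), chr5:21884454-22344702 (Reln, ENSMUSG00000042453), chr2:70553072-70602014 (Gad1, ENSMUSG00000070880) and chr2:22622205-22693874 (Gad2, ENSMUSG00000026787).

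Counts were fitted with edgeR 4.0.16 (R 4.3.3, TMM, glmQLFit and glmQLFTest) over all 16 mice, with treatment and genotype as terms, or with a mean per group for the contrasts within a genotype and the interaction, so that contrasts share vehicle mice. Genes needed 10 counts in 4 mice. CPM used TMM-scaled totals, and log2 CPM a prior count of 2. Total counts were 21391335 to 25854334 in evacetrapib-treated and 21866883 to 55453789 in vehicle-treated APPtg/CETPtg mice, and 33684250 to 46800787 and 28626139 to 37709734 in the CETPtg groups. Replicates were distinct libraries (24 pairs, chi-square per degree of freedom 4.74 to 21.3). Correlations used 100000 permutations within groups in Python 3.11.15 (scipy 1.17.1). Alternatives were DESeq2 1.42.0, limma-voom 3.58.1, other scaling, filters and call rules, each mouse left out, and terms for index position, depth and olfactory bulb markers. The statistics were tested on simulated data.

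The members, the lists of related genes and markers, and the promoter motif were chosen with earlier results of these data known. Named from the pathway lists were genes called in any comparison and the 2 with the smallest p in the evacetrapib and in the genotype comparison, and for each member the 3 genes nearest in pattern; of the genes this rule gives, 2 are not reported here. The remaining marker lists gave, called higher and lower in the genotype comparison, 1 and 0 of 7 (all neurons), 0 and 2 of 7 (striatal), 1 and 1 of 6 (thalamic), 0 and 2 of 5 (oligodendrocyte), 1 and 0 of 5 (microglia) and 0 of 6, 6, 6, 5, 5 and 3 (excitatory, cerebellar, olfactory bulb, astrocyte, endothelial and hypothalamic).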

Additional observations from a re-analysis of the deposited data

Results flagged for a closer look

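Within the 40 groups of 4 mice that the 10 members give, 3 held a mouse set apart from the other 3, with a gap to its neighbour over the whole range above Dixon's 95% critical value for 4 values. Chance gives about 1 such group in 20. Sst in vehicle-treated CETPtg mice was at 184.8 CPM in mouse S2 and at 172 to 173 CPM in the others (ratio 0.910). Calb1 in the same group was at 109 CPM in mouse S1 and at 94.0 to 96.2 CPM in the others (ratio 0.855). Reln in evacetrapib-treated CETPtg mice was at 132 CPM in mouse D and at 104 to 107 CPM in the others (ratio 0.898). Mouse D also had the highest olfactory bulb marker sum of its group, at 180.0 CPM against 42.6 to 66.1 CPM.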

How the results depend on the processing

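No paired analysis was possible because the groups share no replicate numbers in the labels. Each index letter occurs once in each genotype, which the labels do not call a replicate, and a term for it gave 2990 genes and 3 members called between genotypes, against 3299 and 3 without it. No member was called in any of the 4 evacetrapib comparisons under the alternatives that were run. In the genotype comparison, Vip passed in all of them except the fits within a single treatment. Cck passed in all except the fit within evacetrapib-treated mice. Genes called over both genotypes under evacetrapib went from 2 to 55 (DESeq2), 35 (no filter), 1 (no genotype term) and 0 (index number term, and counts drawn down). Within CETPtg they went from 0 to 9 (no filter) and 1 (drawn down), and within APPtg/CETPtg from 8 to 43 (DESeq2), 88 (no filter), 2 (8 mice alone), 5 (drawn down) and 17 (olfactory bulb term). The interaction went from 0 to 2 (DESeq2), 29 (no filter) and 2 (olfactory bulb term). Genotype calls went from 3299 to 1934 among vehicle-treated and 556 among evacetrapib-treated mice, with 0 members called in the latter. Without 1 mouse in turn these counts ran from 0 to 8 over both genotypes, 0 to 14 within APPtg/CETPtg and 0 to 1 for the interaction, and pairs of correlated members from 1 (without S8) to 7 (without S1), with 5 without S2 against 3 in all mice. The cause was not tested. The index, depth, olfactory bulb and single-treatment alternatives were chosen after seeing the data.

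Signs turned only in log2 differences that had not passed. Over both genotypes under evacetrapib, they were −0.016 for Calb2 without the genotype term, −0.015 for Npy, −0.090 for Vip, −0.041 for Cck, −0.0092 for Pvalb, 0.054 for Reln and 0.070 for Gad1 with the index number, −0.013 for Pvalb drawn down and −0.026 for Calb2 with the olfactory bulb term. The latter gave −0.0070 for Vip, −0.0053 for Calb1 and 0.020 for Calb2 within CETPtg, −0.077 for Calb2 and −0.051 for Gad1 within APPtg/CETPtg, and in the interaction 0.17 for Vip, −0.097 for Calb2, −0.036 for Gad1 and −0.029 for Gad2, with 0.031 for Gad1 by genotype. Drawn down, the Vip interaction was 0.061. By genotype, Calb1 was 0.059 in vehicle-treated mice, and in evacetrapib-treated mice Pvalb was −0.17, Calb2 0.43, Reln 0.11, Gad1 0.15, Vipr1 −0.053 and Dab1 0.0067. Without 1 mouse, ranges over both genotypes were −0.0051 to 0.14 for Pvalb, −0.061 to 0.032 for Reln, −0.064 to 0.043 for Gad1, −0.023 to 0.12 for Npy and −0.16 to 0.21 for Calb2. They were −0.017 to 0.10 for Calb1 within CETPtg, and −0.078 to 0.16 for Vip, −0.11 to 0.027 for Gad2, −0.23 to 0.091 for Npy and −0.21 to 0.011 for Cck within APPtg/CETPtg. The Vip interaction ran from −0.15 to 0.092, and by genotype Calb1 ran from −0.061 to 0.0025, Gad1 from −0.090 to 0.027 and Dab1 from −0.031 to 0.0043. In all, 98 values of list genes and members lost their call under an alternative, 3 gained one, and 1890 kept direction and call.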

Other observations

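Outside the inhibitory system, the 5 endothelial markers differed by a median log2 value of 0.31 between evacetrapib and vehicle over both genotypes. All 5 were at an unadjusted p of at most 0.05 and 0 were called by edgeR (smallest adjusted p = 0.134). Their summed CPM was 147 to 177 under vehicle and 176 to 203 under evacetrapib in CETPtg mice, and 131 to 179.2 under vehicle and 179.1 to 219 under evacetrapib in APPtg/CETPtg mice. Pecam1, Flt1 and Cdh5, which belong to this list, are among the differentially expressed genes that the study reported with DESeq2. Over all genes, DESeq2 called 55 in this comparison and edgeR 2. The summed CPM of hypothalamic markers, 3 of 6 of which were tested, ran from 1.86 to 110 between mice.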
